A study of Mus musculus with 6 samples.

Results

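DNA methylation is set, read and removed by a small group of proteins, and the transcripts of 9 of their genes were followed here in whole cortical hemispheres of mice of 6 and 16 months. The genes were chosen by name for their function: the writers Dnmt1, Dnmt3a and Dnmt3b with the Dnmt1 partner Uhrf1, the erasers Tet1, Tet2 and Tet3, and the readers Mbd1 and Mbd2. All 9 were among the 38355 genes listed in the counts and among the 17120 that passed the filter on low counts. The study asked whether DNMT1 acts in the ageing of parvalbumin (PV) interneurons, inhibitory neurons of the cortex. Whole cortex holds those cells as a minority among excitatory neurons and glia, so that the values below are levels of the mixed tissue.

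All samples came from C57BL/6 mice, an inbred wild-type strain, with no allele, transgene or treatment named beyond the anesthetic given before dissection. There were 3 samples at 6 months and 3 samples at 16 months, each with a replicate number from 1 to 3. The text on housing gives the younger age as 3 months, while every sample's own age label gives 6 months, the age used here. Polyadenylated RNA was sequenced, and the deposited counts on genes summed to between 29797253 and 46519280 per sample. Levels are given as counts per 1000000 counts on genes after TMM scaling of the library sizes (CPM). The quasi-likelihood test of edgeR compared the ages, every log2 fold change is that of 16 over 6 months, and a gene was called when its Benjamini-Hochberg adjusted p over all tested genes was under 0.05. The p-values measure the spread between these samples only. In such bulk samples, fewer cells of a type and less RNA per cell cannot be told apart.

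As background, methyl groups are placed on cytosine, mainly where it is followed by guanine (CG). DNMT1 copies the methyl marks to the new strand when DNA is replicated, guided by UHRF1, which recognises DNA methylated on the parental strand only, whereas DNMT3A and DNMT3B place new marks; neurons no longer divide and yet express DNMT1 and DNMT3A. TET enzymes oxidise methylcytosine, which marks it for removal, and proteins with a methyl-CpG-binding domain, such as MBD1 and MBD2, bind methylated DNA and recruit corepressors.

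The cortical label was checked against marker genes. Markers of excitatory neurons were present in every sample, and their summed level lay between 4341 and 4587 CPM at 6 months and between 4518 and 5224 CPM at 16 months. Pvalb, which encodes parvalbumin, fell from 42.6 ± 1.03 to 18.4 ± 0.761 CPM (SD, n = 3 per age). Its log2 fold change was −1.21 (edgeR adjusted p = 1.5e-05), while the other 9 markers of PV interneurons were not called. Of the 10 differences of that list, 6 were positive and 4 negative, with 5 at an unadjusted edgeR p under 0.05 (17.4% of all tested genes). The list summed to between 1132 and 1156 CPM at 6 months and between 1164 and 1208 CPM at 16 months. Of 7 thalamus markers, 4 were called higher (Prkcd, Shox2, Plekhg1 and Tcf7l2), and their list summed to between 303 and 311 CPM at 6 months and between 355 and 375 CPM at 16 months. Of 5 markers of the dentate gyrus, 3 were called higher (Dsp, Lct and C1ql2), with sums from 49.7 to 52.5 CPM and from 70.4 to 74.5 CPM. Over all tested genes, 0.783% were called higher and 0.888% lower. Gfap was the 1 astrocyte marker called, lower, while 4 of the 7 differences of that list were positive, and its sum was 5462 to 5807 CPM at 6 months and 5844 to 6594 CPM at 16 months. Aif1 was the 1 microglial marker called, also lower, with 4 of 8 differences positive and sums of 413 to 428 CPM and 425 to 428 CPM. Kdr of endothelial cells was called lower, Gpr17 of oligodendrocyte precursors and the choroid plexus gene Ttr were called higher, and no marker of newborn neurons, oligodendrocytes or dividing cells was called. In 16 months replicate 1 the levels of genes rose with their GC content (r = 0.588 across genes between GC content and the deviation from the mean of the age), and in 16 months replicate 2 they fell with it (r = −0.582). The other 4 samples lay between −0.130 and 0.160. The part of the marker differences in the results below was not tested. For the 9 genes, values without single samples and with a correction for GC content and length are given beside those that they move the most.

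Because a gene's count joins the transcripts from all of its starts, the sequences before the starts are shown for the genes that the results turn on: Dnmt1, which the study deleted in PV interneurons; Dnmt3a, the most counted of the 9; Tet2, whose window holds the most CG pairs; and Sycp1, a germline gene described further below. Each run is the 250 bases before a RefSeq start (GRCm38.p6), printed 5′ to 3′ on the gene's strand, with every CG in capitals. CG reads the same on both strands. Of 32851 such windows in the mouse, the median held 6 CG and 37.8% held 10 or more.
Dnmt1, start 1, chr9:20959889-20960138, minus strand: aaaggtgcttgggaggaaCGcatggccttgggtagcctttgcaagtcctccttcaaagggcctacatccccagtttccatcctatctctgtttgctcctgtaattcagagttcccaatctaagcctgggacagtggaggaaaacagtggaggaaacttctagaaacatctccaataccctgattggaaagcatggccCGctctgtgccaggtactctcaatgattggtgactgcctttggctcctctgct
Dnmt1, start 2, chr9:20952980-20953229, minus strand: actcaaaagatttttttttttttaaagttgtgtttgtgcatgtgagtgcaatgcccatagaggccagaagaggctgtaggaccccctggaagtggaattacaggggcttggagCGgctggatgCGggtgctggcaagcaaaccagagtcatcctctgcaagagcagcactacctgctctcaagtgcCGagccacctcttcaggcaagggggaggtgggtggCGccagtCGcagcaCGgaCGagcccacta
Dnmt1, start 3, chr9:20952624-20952873, minus strand: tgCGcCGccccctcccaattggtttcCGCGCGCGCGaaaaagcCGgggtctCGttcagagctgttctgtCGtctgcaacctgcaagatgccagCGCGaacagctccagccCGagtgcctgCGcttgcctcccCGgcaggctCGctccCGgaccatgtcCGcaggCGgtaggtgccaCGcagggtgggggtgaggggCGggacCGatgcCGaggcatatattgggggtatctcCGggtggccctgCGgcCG
Dnmt3a, start 1, chr12:3806730-3806979, plus strand: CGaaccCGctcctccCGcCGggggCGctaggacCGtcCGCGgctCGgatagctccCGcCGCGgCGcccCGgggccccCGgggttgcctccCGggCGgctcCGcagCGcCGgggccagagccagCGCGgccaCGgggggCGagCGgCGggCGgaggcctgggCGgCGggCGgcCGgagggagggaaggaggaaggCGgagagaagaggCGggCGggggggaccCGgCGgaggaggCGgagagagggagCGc
Dnmt3a, start 3, chr12:3891494-3891743, plus strand: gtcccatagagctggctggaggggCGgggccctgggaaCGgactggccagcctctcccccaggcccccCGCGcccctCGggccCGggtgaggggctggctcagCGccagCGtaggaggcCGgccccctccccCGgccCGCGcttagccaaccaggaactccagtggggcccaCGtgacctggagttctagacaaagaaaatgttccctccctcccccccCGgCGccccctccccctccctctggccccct
Tet2, chr3:133544391-133544640, minus strand: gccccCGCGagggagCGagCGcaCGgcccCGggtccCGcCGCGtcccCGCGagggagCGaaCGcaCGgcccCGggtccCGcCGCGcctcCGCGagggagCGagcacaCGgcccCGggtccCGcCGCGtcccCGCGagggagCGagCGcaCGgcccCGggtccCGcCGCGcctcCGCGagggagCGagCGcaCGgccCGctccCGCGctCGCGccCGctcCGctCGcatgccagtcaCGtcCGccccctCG
Sycp1, chr3:102936101-102936350, minus strand: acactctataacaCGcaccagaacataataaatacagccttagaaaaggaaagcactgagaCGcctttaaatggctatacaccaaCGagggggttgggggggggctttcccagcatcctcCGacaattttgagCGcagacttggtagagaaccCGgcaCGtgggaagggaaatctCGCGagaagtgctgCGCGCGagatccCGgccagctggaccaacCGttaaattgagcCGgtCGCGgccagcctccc
The starts of a gene differed widely in this count. The 3 Dnmt1 windows held 2, 7 and 26 CG, and 81.2%, 46.3% and 9.59% of all windows held at least as many. The Dnmt3a windows held 38 CG at start 1, 40 at start 2 and 15 at start 3, which lies further along the gene. The window of start 2 overlaps that of start 1 and is not printed. The Tet2 window held 51, a number that 0.0670% of windows reached. The Sycp1 window held 17 CG, a number that 23.5% of windows reached. Among the genes not printed, Dnmt3b had 21 CG, Tet1 15, Tet3 17 and the pair of Uhrf1 starts 10 and 30. These counts are features of the reference sequence; no methylation was measured in these samples.

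None of the 9 genes was called between 6 and 16 months. edgeR's quasi-likelihood test called 1.67% of all tested genes (286 genes), and 0 of the 9, whose adjusted p ranged from 0.410 for Uhrf1 to 0.862 for Mbd2. At an unadjusted p under 0.05 there were 0 of the 9 as well, against 17.4% of all tested genes, and DESeq2's Wald test, which called 3.03% of the genes it gave an adjusted p, also gave 0 at either threshold. With the replicate number as a block, which called 4.57% of all tested genes, the number was 0 as well. In 0 of the 9 genes did the samples of the ages lie apart, a separation that 23.7% of tested genes showed. Of the differences, 6 were positive and 3 negative, and their median of 0.051 on the log2 scale stood beside 0.0014 over all tested genes. For 7 of the 9, the 95% interval of the difference lay within a decrease of 20% and an increase of 25%; the exceptions were Dnmt3b and Uhrf1, which had the lowest counts.

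**Figure D1:**
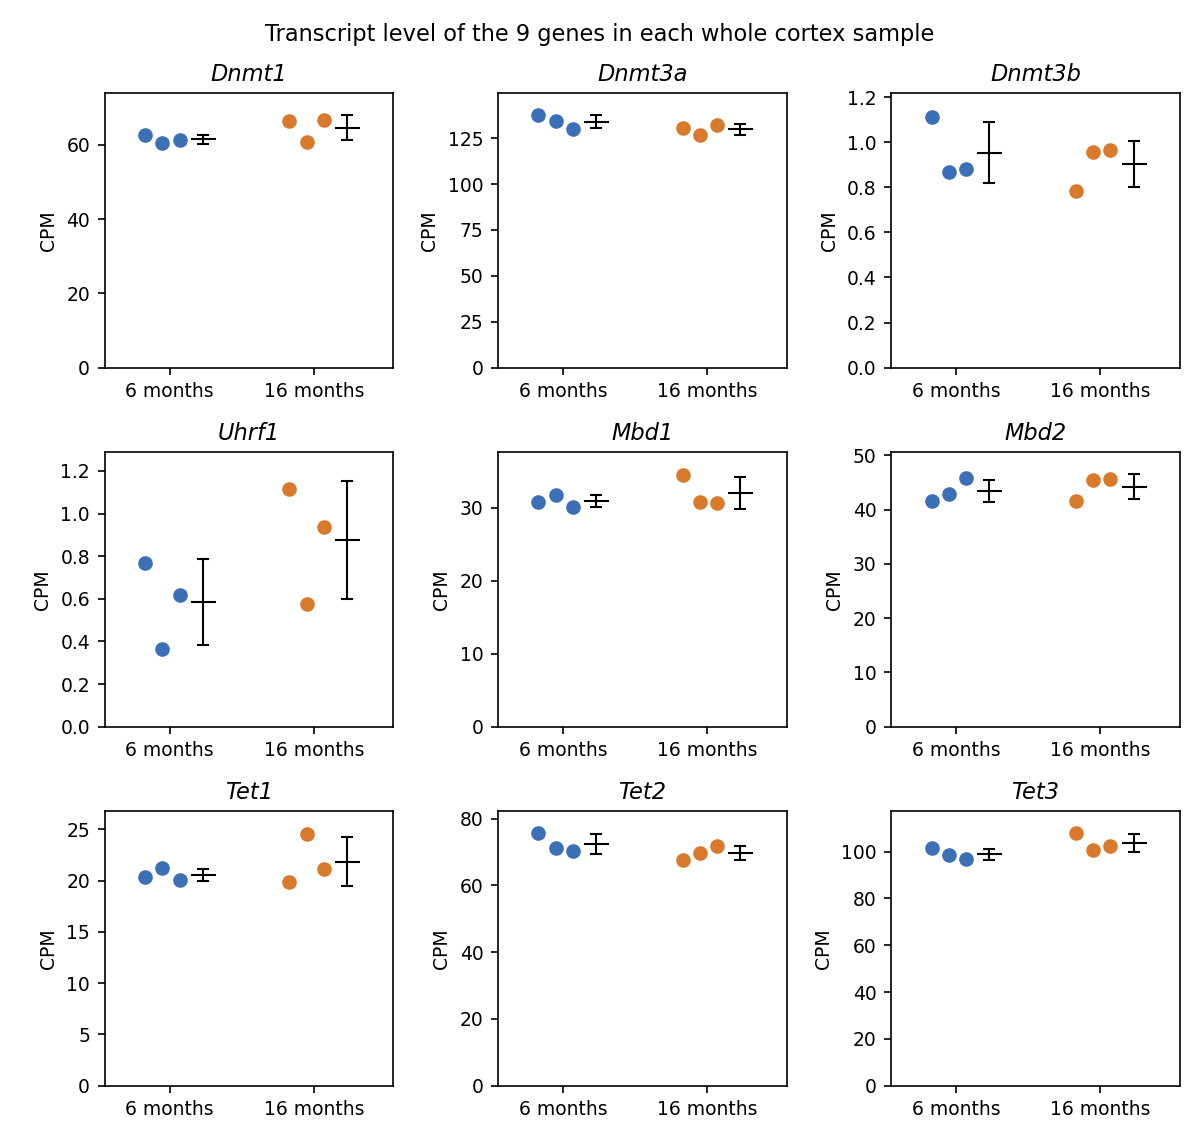
Level of each gene in CPM (y axis, starting at 0) in the 3 samples of 6 months (blue) and the 3 samples of 16 months (orange), in the order of the replicates, with the mean and SD of each age in black. In every panel the samples of the ages overlap, and Uhrf1 and Dnmt3b, both near 1 CPM, have the widest spread relative to their level.

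Dnmt1 (chromosome 9, 20907209 to 20959888, GRCm38), the maintenance methyltransferase, was at 62.6, 60.4 and 61.2 CPM in replicates 1, 2 and 3 at 6 months. At 16 months its level was 66.4, 60.7 and 66.6 CPM. Replicates 1 and 3 of 16 months lay above all samples of 6 months, and replicate 2 lay inside their range. The mean moved from 61.4 ± 1.10 to 64.6 ± 3.37 CPM (SD, n = 3), a log2 fold change of 0.072 ± 0.056 (SE; 95% interval −0.053 to 0.20; edgeR adjusted p = 0.553). In percent, the interval runs from 3.59% lower to 14.6% higher (−3.59 to 14.6), so that a rise in whole cortex of up to that size is within these data, and a change inside PV interneurons alone could not be seen in them. With each sample's counts corrected for the GC content and length of the genes, the difference was 0.03 on the log2 scale (adjusted p = 0.627), and without 16 months replicate 2 it was 0.11 (adjusted p = 0.141).

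Uhrf1 (chromosome 17, 56303321 to 56323486), the partner that brings DNMT1 to newly copied DNA, was the least counted of the 9, with 36, 11 and 26 counts at 6 months and 37, 18 and 32 counts at 16 months. In CPM these were 0.768, 0.367 and 0.620 at 6 months and 1.12, 0.574 and 0.937 at 16 months. The ages overlapped: replicate 2 was the lowest of its age in both, and 16 months replicate 2 lay below 2 of the samples of 6 months. The difference was the largest of the 9 in size, 0.53 ± 0.31 (SE; 0.32 to 0.78 with 1 sample left out), and its interval, −0.15 to 1.21, was also the widest (adjusted p = 0.410), so that anything from a small decrease to a 2.32-fold increase was not resolved at this depth. Of 8 markers of dividing cells, none was called and 3 passed an unadjusted p of 0.05 (17.4% of all tested genes did): Mki67, a protein of cycling cells (2.43 ± 0.647 to 3.87 ± 0.415 CPM, log2 fold change 0.64), Top2a, a topoisomerase of cycling cells (1.26 ± 0.765 to 2.88 ± 0.849 CPM, 1.11), and Birc5 (0.840 ± 0.110 to 0.597 ± 0.0681 CPM, −0.50). The summed level of that list was 16.1 to 19.97 CPM at 6 months and 20.03 to 24.3 CPM at 16 months, and its part in the Uhrf1 values was not tested. Uhrf1 transcripts share up to 1590 near-identical bases with the pseudogene Gm5648, which had 0 counts in all 6 samples. Reads that fit both places equally well are left out by HTSeq's default, so the count of Uhrf1 may lack reads from these bases. How many reads were left out was not measured.

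Dnmt3a (chromosome 12, 3806007 to 3914443), the de novo methyltransferase best known from neurons, had the highest CPM of the group. Its values were 137, 135 and 130 CPM at 6 months and 131, 127 and 132 CPM at 16 months. The means, 134 ± 3.70 and 129.7 ± 2.79 CPM, differed by −0.047 ± 0.050 on the log2 scale (interval −0.16 to 0.065, adjusted p = 0.682), and the samples overlapped. With the correction for GC content and length, under which 14.3% of all tested genes were called, the difference was −0.095 with an adjusted p of 0.0621 by edgeR, and 0 of the 9 genes were called. When the replicate number was added to that correction as a block, a fit that called 3270 of the 17120 tested genes, Dnmt3a was called at −0.096 (edgeR adjusted p = 0.0327). With 1 sample left out, the uncorrected difference ranged from −0.068 to −0.029. Its exons share 133 bases (0.799%) with the antisense transcript Dnmt3aos, whose reads could not be kept apart with certainty since the strand setting of the counting is not known.

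Dnmt3b (chromosome 2, 153649450 to 153687730), the de novo enzyme best known from the early embryo, was near the bottom of the measured range, with 52, 26 and 37 counts at 6 months and 26, 30 and 33 counts at 16 months. Its CPM were 1.11, 0.867 and 0.882 at 6 months and 0.784, 0.957 and 0.966 at 16 months. Replicate 1 was the highest sample at 6 months and the lowest at 16 months. The difference was −0.095 ± 0.19 (interval −0.53 to 0.34, adjusted p = 0.839), and without 6 months replicate 1 it was 0.043, of the opposite sign.

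Among the erasers, Tet1 (chromosome 10, 62804570 to 62908996) was the lowest, at 20.3, 21.2 and 20.1 CPM at 6 months and 19.9, 24.5 and 21.1 CPM at 16 months. 16 months replicate 2 stood out, and the other 5 lay within 19.9 and 21.2 CPM. The difference of 0.088 ± 0.081 (interval −0.092 to 0.27, adjusted p = 0.624) rested on that sample and was −0.0020 without it. With the correction for GC content and length it was 0.091 (adjusted p = 0.245), about as large as without it. At 16 months replicate 1 was lower than replicate 2 by 0.30 on the log2 scale in Tet1 and higher by 0.90 in Uhrf1, and over the 9 genes this difference correlated with GC content with r = 0.325 (a description over 9 genes, with no test).

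Tet2 (chromosome 3, 133463679 to 133545139) was at 75.6, 71.3 and 70.2 CPM at 6 months and at 67.7, 69.7 and 71.7 CPM at 16 months. Tet3 (chromosome 6, 83362373 to 83459084), the most counted eraser, was at 101, 98.5 and 96.8 CPM at 6 months and at 108, 101 and 102 CPM at 16 months. Their differences were small and of opposite sign. That of Tet2 was −0.054 ± 0.054 (interval −0.17 to 0.066, adjusted p = 0.654). That of Tet3 was 0.068 ± 0.052 (interval −0.048 to 0.18, adjusted p = 0.547), and in both genes the ages overlapped. With 1 sample left out, the Tet2 difference ranged from −0.076 to −0.021 (lowest in size without 6 months replicate 1) and the Tet3 difference from 0.038 (without 16 months replicate 1) to 0.087. With the correction for GC content and length the Tet3 difference was 0.012. Tet2 shares 43 exon bases (0.255%) with a gene on the other strand.

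Of the readers, Mbd1 (chromosome 18, 74267605 to 74282732) was at 30.8, 31.8 and 30.2 CPM at 6 months and at 34.5, 30.8 and 30.7 CPM at 16 months, with 1 sample of 16 months above all others. Its difference of 0.051 ± 0.064 (interval −0.092 to 0.19, adjusted p = 0.730) was −0.0071 without that sample, 16 months replicate 1. Mbd2 (chromosome 18, 70568189 to 70626131) was at 41.7, 42.9 and 45.7 CPM at 6 months and at 41.6, 45.4 and 45.7 CPM at 16 months, which is nearly the same range. The difference was 0.027 ± 0.062 (interval −0.11 to 0.17, adjusted p = 0.862).

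**Figure D2:**
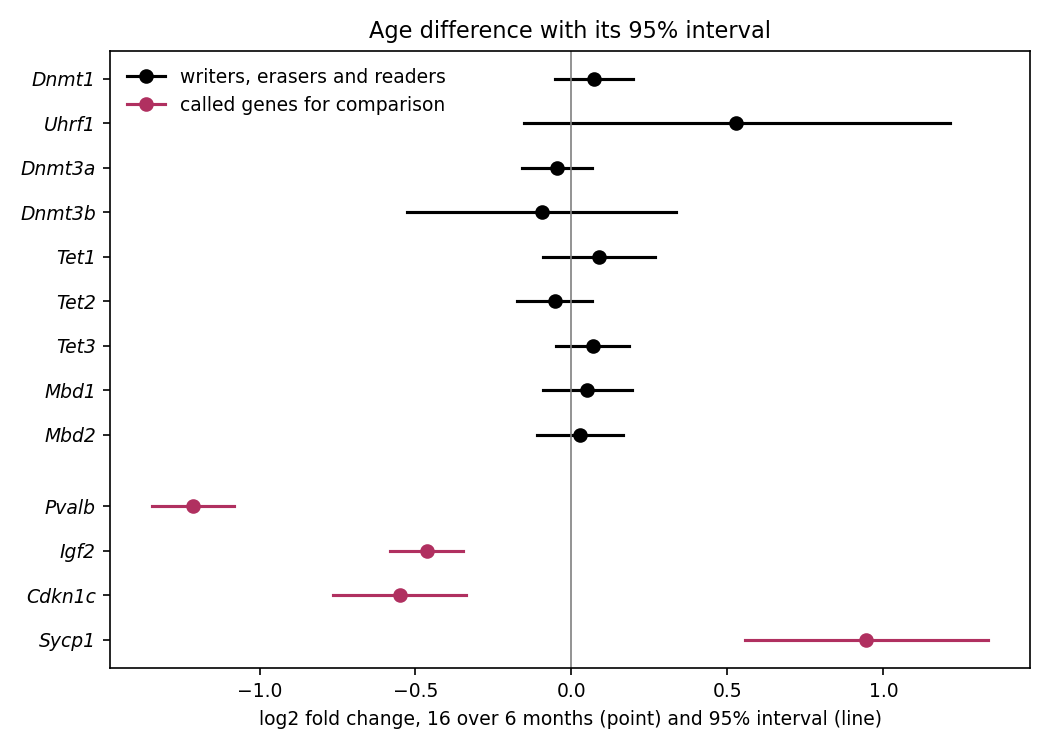
Log2 fold change of 16 over 6 months (point) with its 95% interval (line) for the 9 genes in black, and in red for 4 called genes, Pvalb, Igf2, Cdkn1c and Sycp1. All 9 black intervals include 0; 7 of them are narrow and centred between −0.054 and 0.088, and those of Uhrf1 and Dnmt3b are wide.

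To compare levels between genes, counts were divided by the length of the annotated exons (reads per kilobase per 1000000 counts, RPKM). At 6 months Mbd2 was the highest at 13.5 ± 0.651 RPKM, followed by Dnmt1 at 8.33 ± 0.150 and Dnmt3a at 8.05 ± 0.222 RPKM (SD, n = 3). Dnmt1 and Dnmt3a could not be ordered: their samples overlapped, and the order turned when the longest transcript was taken as the length. Tet3 (5.93 ± 0.139), Mbd1 (4.61 ± 0.121), Tet2 (4.29 ± 0.170) and Tet1 (1.33 ± 0.0377 RPKM) followed, each apart from the next over all 6 samples. With the longest transcript as length, Mbd1 (7.69 to 8.81 RPKM) and Tet2 (7.37 to 8.24 RPKM) overlapped, so that their order is not settled. Dnmt3b (0.187 ± 0.0266) and Uhrf1 (0.137 ± 0.0476 RPKM) closed the order, with overlapping samples. At 16 months the means ran from 13.8 RPKM for Mbd2 to 0.177 RPKM for Dnmt3b, with Uhrf1 at 0.206 RPKM. Dnmt3b and Uhrf1 could not be ordered at either age, also because the length of Uhrf1 includes bases shared with its pseudogene.

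The make-up of the Dnmt and Tet families was also compared, as the share of each in the family's summed RPKM. These shares, and the ratios below, depend on the length taken. With the longest transcript as length, Dnmt1 was at 10.7, 10.3 and 10.4 RPKM at 6 months. Dnmt3a was then higher, at 14.2, 13.9 and 13.4 RPKM, and the age difference in the Dnmt1 share was 2.01 percentage points. With the annotated exons as length, Dnmt1 made up 50.0%, 49.8% and 50.9% of the Dnmt total at 6 months and 52.9%, 51.3% and 52.7% at 16 months. Each sample of 16 months lay above each sample of 6 months, with means of 50.3 ± 0.595% and 52.3 ± 0.850% (SD, n = 3). Dnmt3a held 48.6 ± 0.580% and 46.6 ± 0.743%, and Dnmt3b held 1.12 ± 0.136% and 1.06 ± 0.139%. The log2 ratio of maintenance (Dnmt1) to de novo enzymes (Dnmt3a and Dnmt3b) was 0.015 ± 0.034 at 6 months and 0.13 ± 0.049 at 16 months. With 3 samples against 3 the exact two-sided permutation test cannot give a p under 0.1; it gave that smallest value, 0.1, for these 3 measures (Dnmt1 share, Dnmt3a share and the ratio), and 0.2 after Benjamini-Hochberg adjustment over the 8 measures compared. The 3 measures are nearly the same quantity, so they do not count as separate observations, and the difference is not past the threshold.

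In the Tet family, Tet2 made up 37.8%, 36.7% and 37.0% of the total at 6 months and 34.1%, 35.2% and 36.2% at 16 months. Here too the ages lay apart, with means of 37.1 ± 0.534% and 35.2 ± 1.04% (exact permutation p = 0.1, adjusted 0.2). With the correction for GC content and length the Tet2 difference was −1.62 percentage points, and its exact permutation p was 0.2 and no longer the smallest possible. Tet3 took 51.3 ± 0.166% and 52.8 ± 1.88% (exact permutation p = 0.2, adjusted 0.32), a difference of 1.51 percentage points. It was 0.449 without 16 months replicate 1 and 0.818 with the correction for GC content and length. With the longest transcript as length it was 1.72 (exact permutation p = 0.1). Tet1 took 11.5 ± 0.427% and 12.0 ± 1.32% (exact permutation p = 0.8, adjusted 0.9), a difference of 0.491 percentage points. With the correction for GC content and length the Tet1 difference was larger, 0.804 (exact permutation p = 0.1). Without 16 months replicate 2 and without that correction it was −0.244. The summed Tet level was 0.697 times the summed Dnmt level at 6 months and 0.704 times at 16 months, and its log2 value did not differ beyond the spread (−0.52 ± 0.0097 and −0.51 ± 0.054, exact permutation p = 0.9, adjusted 0.9). Over 9 alternatives, each sample left out among them, the difference in the Dnmt1 share lay between 1.73 and 2.53 percentage points and that in the Tet2 share between −2.52 and −1.48.

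**Figure D3:**
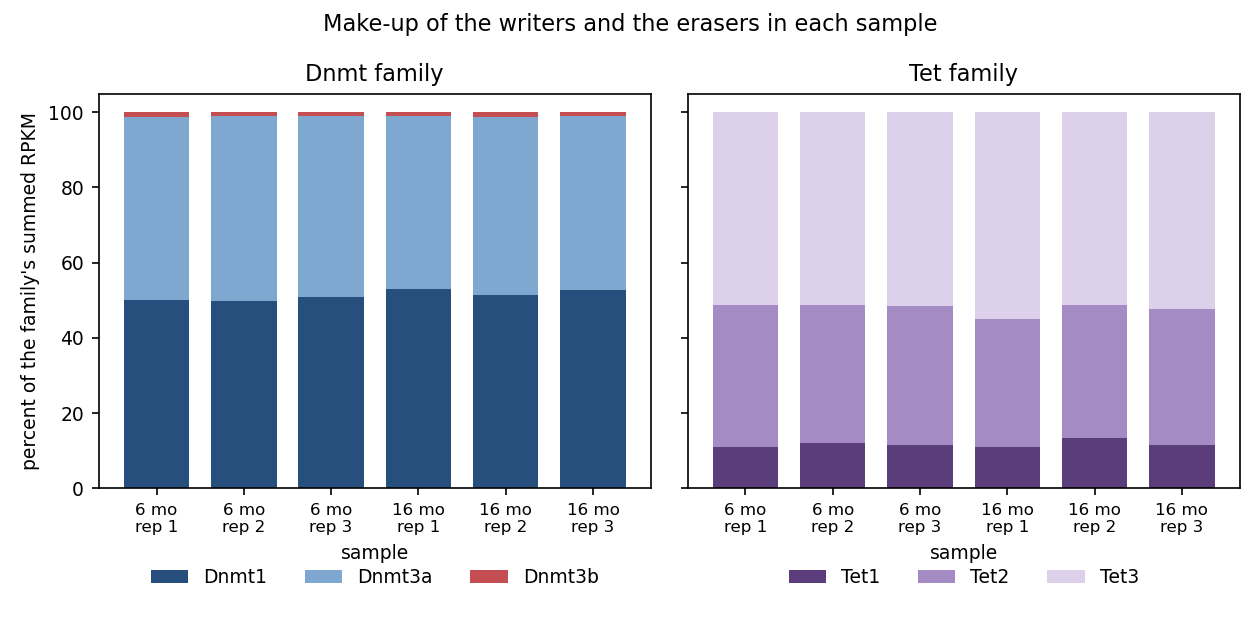
Share of each enzyme in the summed RPKM of its family (y axis, in percent) in each of the 6 samples (x axis), for the Dnmt enzymes on the left and the Tet enzymes on the right. Dnmt1 takes 49.8% to 50.9% at 6 months and 51.3% to 52.9% at 16 months, Dnmt3b is a thin band near 1%, and Tet3 takes the largest part of the Tet total in every sample.

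The genes that work with the 9, or are known to depend on DNA methylation, were taken from 7 lists of 164 genes, of which 160 were matched by name and 135 were tested. Of these, 3 were called (2.22%, against 1.67% of all tested genes): 1 higher (0.783% of all tested genes were called higher) and 2 lower (0.888%). The lists of partners, demethylation steps, other readers, corepressors and methyl donor genes held none of the 3. Among 14 partners of the methyltransferases, 9 differences were positive and 5 negative (median 0.024). At an unadjusted edgeR p under 0.05 there were 2 of the 14 (17.4% of all tested genes). Nsd1, a histone methyltransferase and the highest in CPM, was at 209 ± 4.42 and 211 ± 11.4 CPM, and Cdca7l had the largest difference, 0.40 ± 0.24 (adjusted p = 0.434).

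Among 19 genes for the further steps of demethylation and repair, 5 differences were positive and 14 negative (median −0.055), with 3 of the 19 at an unadjusted p under 0.05 (17.4% of all tested genes). Ogt, the O-GlcNAc transferase that binds TET proteins, was the highest at 698 ± 6.22 and 619 ± 49.8 CPM (log2 fold change −0.17 ± 0.062, adjusted p = 0.193, and 0.0018 with the correction for GC content and length). Apobec2, a member of a cytidine deaminase family, had the largest difference, −0.65 ± 0.39, at 0.345 CPM at 6 months (adjusted p = 0.422).

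The 13 other readers held 6 positive and 7 negative differences (median −0.025) and none at an unadjusted p under 0.05. Thyn1 had the largest difference of that list, −0.17 ± 0.081 (16.8 ± 1.33 to 14.9 ± 1.03 CPM, adjusted p = 0.326). Of 23 corepressor subunits that readers recruit, 16 differences were positive and 7 negative (median 0.017). At an unadjusted edgeR p under 0.05 there were 3 of the 23 (17.4% of all tested genes). Chd3, a remodelling subunit of the NuRD complex, was the highest at 586 ± 20.7 and 637 ± 51.2 CPM. Gatad2b, another NuRD subunit, had the largest difference, 0.30 ± 0.079 (26.4 ± 0.503 to 32.4 ± 3.59 CPM), with an adjusted p of 0.0990 by edgeR and 0.0477 by DESeq2. Of 19 tested genes listed around the supply of the methyl donor, 11 differences were positive and 8 negative (median 0.016). At an unadjusted edgeR p under 0.05 there were 2 of the 19. Ahcyl1 was the highest at 568 ± 2.74 and 577 ± 27.9 CPM, and Mtr, methionine synthase, had the largest difference, 0.20 ± 0.061 (16.0 ± 0.559 to 18.4 ± 0.389 CPM, adjusted p = 0.135).

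The 3 calls were in the lists of imprinted genes and of germline genes. Imprinted genes are expressed, in at least some tissues, from the allele of a single parent under control of DNA methylation. The counts do not tell the alleles apart. Of 35 tested imprinted genes, 2 were called, both lower (5.71%, against 0.888% of all tested genes called lower), and 10 passed an unadjusted p of 0.05, which 17.4% of all tested genes did. The median of the list was 0.014, with 18 positive and 17 negative differences. Igf2, insulin-like growth factor 2, was at 48.0, 49.6 and 47.8 CPM at 6 months and at 35.1, 34.4 and 35.9 CPM at 16 months. All samples of 16 months lay far below those of 6 months, a fall to 35.1 ± 0.739 from 48.5 ± 1.01 CPM (SD, n = 3; log2 fold change −0.46 ± 0.052, edgeR adjusted p = 0.0025). Cdkn1c, the cyclin-dependent kinase inhibitor p57, was at 5.21, 5.57 and 5.22 CPM at 6 months and at 3.92, 3.35 and 3.60 CPM at 16 months. Its fall of 0.55 ± 0.095 on the log2 scale (−0.55) had an adjusted p of 0.0224.

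Igf2 is also known from blood vessels, meninges and choroid plexus. The 6 endothelial markers, none of them at 0, summed to between 142 and 144 CPM at 6 months and between 132 and 136 CPM at 16 months, with 1 called, Kdr (10.4 ± 0.1001 to 7.91 ± 0.212 CPM, −0.39, adjusted p = 0.0231). The 5 tested choroid plexus markers summed with Kcne2 to between 336 and 348 CPM and between 330 and 361 CPM, with 1 called, Ttr, which rose from 8.95 ± 0.573 to 17.8 ± 1.076 CPM (1.00, adjusted p = 0.00034). Their part in the 2 falls was not tested. Igf2 shares 3596 of its 5723 exon bases with an annotated read-through gene on the same strand, and Cdkn1c 625 of 2039 with an antisense gene. The other named imprinted genes were Meg3, a long non-coding RNA and by far the most counted, at 7032 ± 346 and 5898 ± 361 CPM (−0.25 ± 0.061, adjusted p = 0.0749 by edgeR and 0.0128 by DESeq2), and Ano1, a chloride channel with the largest difference (−0.57 ± 0.14, adjusted p = 0.0827).

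Of 27 germline genes listed as kept silent in body cells by methylation of their promoters, 12 passed the filter on low counts. These 12 were thus not without reads in this tissue. The list summed to between 41.2 and 47.9 CPM at 6 months and between 35.4 and 45.5 CPM at 16 months. Among the 12, 1 was called higher (0.783% of all tested genes were). Of the 12, 6 passed an unadjusted p of 0.05 by edgeR, which 17.4% of all tested genes did. Sycp1, a protein of the synaptonemal complex of meiotic cells, was at 1.15, 1.43 and 1.24 CPM at 6 months and at 1.90, 2.68 and 2.69 CPM at 16 months. The ages lay apart, with 43 to 54 counts per sample at 6 months and 63 to 92 at 16 months, a log2 fold change of 0.94 ± 0.17 (adjusted p = 0.0276). Its sequence before the start is printed above. The thalamus and dentate gyrus markers, higher at 16 months as described above, moved in the same direction, and their part was not tested. Of the other 11 tested germline genes, 3 differences were positive and 8 negative. The median of the 12 was −0.21. Brdt was the highest, at 23.3 ± 1.34 and 20.1 ± 1.99 CPM, and Tex11 had the largest difference, −1.54 ± 0.46 (adjusted p = 0.128), on 16 to 20 counts at 6 months and 2 to 10 counts at 16 months.

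The call of Igf2 held without each single sample (adjusted p 0.00013 to 0.0330). The calls of Cdkn1c and Sycp1 were lost without any single sample of 6 months or without 16 months replicate 3 (adjusted p 0.110 to 0.135 for Cdkn1c and 0.0946 to 0.169 for Sycp1), settings in which between 48 and 58 genes were called in all. With the correction for GC content and length, 27 genes of the 7 lists were called (14.3% of all tested genes were). Of the 27, 11 were imprinted genes, 4 germline genes, 3 corepressor subunits and 3 methyl donor genes. Partners of the methyltransferases, demethylation genes and other readers held 2 each.

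**Figure D4:**
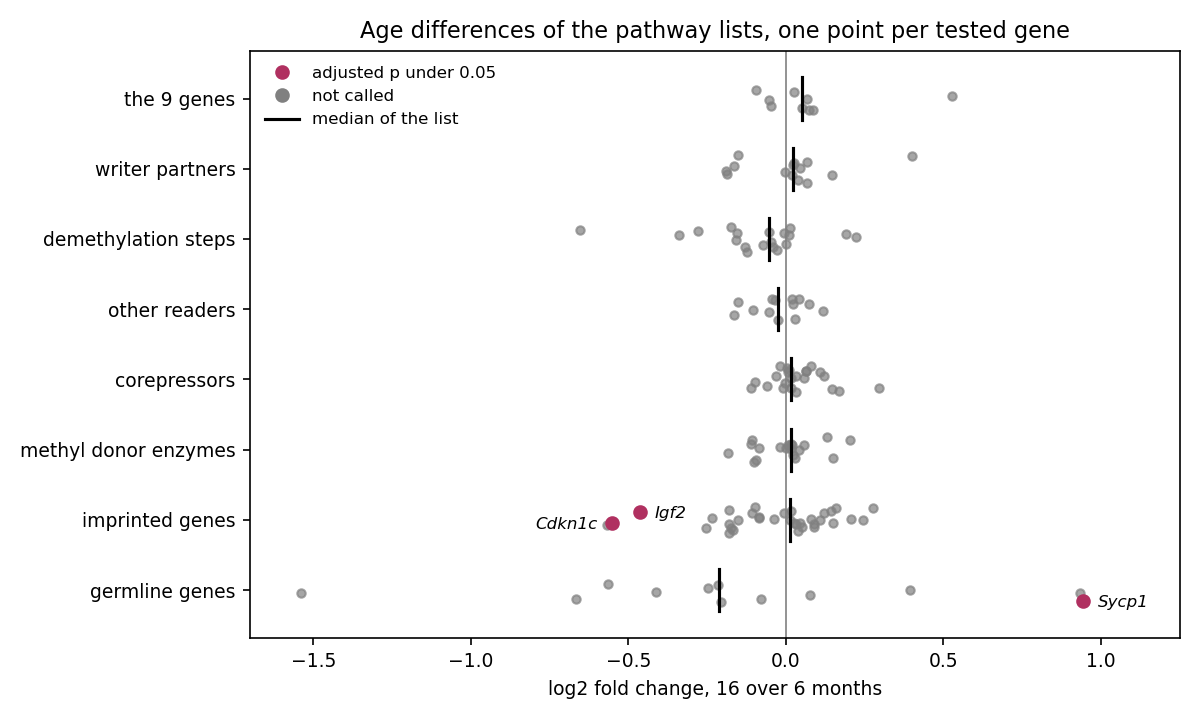
Log2 fold change of 16 over 6 months (x axis) of every tested gene of the 9 and of the 7 lists (rows), with called genes in red and the median of each list as a black line. The medians of the first 7 rows lie between −0.055 and 0.051, the 3 called genes are Igf2, Cdkn1c and Sycp1, and the germline genes, most of them at low counts, spread the widest.

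The tested genes whose log2 CPM followed each of the 9 most closely over the 6 samples are given as a description. The 6 values of a gene share their libraries, with the differences in depth and in GC content described above. For Dnmt1 they were Klhl35 and Shc3 (both r = 0.999), and 127 of 17119 genes exceeded 0.95. For Dnmt3a they were Gm17315 (0.984) and Gad1-ps (0.982), and for Dnmt3b Gm24616 (0.9747) and Hmox2 (0.967). For Uhrf1 they were Prrg2 (0.994) and Tufm (0.992). The erasers were followed by Ero1lb and Snx27 for Tet1 (both 0.997), by ENSMUSG00000097588 (0.987) and Ccdc27 (0.972) for Tet2, and by Exoc8 (0.997) and Ppp1r3e (0.996) for Tet3, where 201 genes exceeded 0.95. For the readers they were Ccar2 (0.997) and Cltb (0.993) for Mbd1, and Tex15 (0.999) and Ttll13 (0.995) for Mbd2. None of the 9 was among the 2 closest genes of another, which says little, since only 2 of 17119 genes were taken. Between the 9 themselves, r ranged from −0.674 (Mbd1 and Mbd2) to 0.893 (Dnmt3b and Tet2).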

How the data were processed

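Whole cortical hemispheres of C57BL/6 mice were sequenced as polyadenylated RNA (TruSeq kit, paired ends), in 3 samples of either age. The deposited values are raw counts per Ensembl gene that the authors left unnormalized. The paper's methods name trimming with fastq-mcf, alignment to mm10 with STAR in 2-pass mode and counting with HTSeq. The submitters' processing notes instead name CASAVA 1.8.2, STAR 2.3.0e and featureCounts 1.5.0-p1. Each count file ends with the summary lines that HTSeq writes, which were used only to describe the samples. The Ensembl release and the strand setting are not given in the sources used here.

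Of 38355 genes, 36602 were matched by identifier to GENCODE M21 (GRCm38), which gave names, positions and exon lengths, and 1753 were not matched. The 9 genes were taken by name. The genes, the lists and the tests were chosen with earlier results of these data known, and the lists support nothing on their own. The counts entered edgeR 4.0.16 (R 4.3.3), with TMM scaling, the filter filterByExpr, which kept 17120 genes, and the quasi-likelihood test without covariates, adjusted by Benjamini-Hochberg over all tested genes. Log2 CPM used a prior count of 2. Intervals of fold changes are 95% intervals from the same fit. RPKM divided CPM by the union of annotated exons. Family shares and ratios were compared with exact two-sided permutation tests (scipy 1.17.1). Near-identical copies were searched with blastn 2.17.0 in the annotated transcripts, at 97% identity over at least 100 bases. Figures were drawn with matplotlib 3.10.9, and the count test was checked on simulated data.

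Named were the 9 genes, the called genes of each list (at most 6), the gene with the highest level in CPM and the gene with the largest difference of each list, called marker genes and Pvalb, and for each of the 9 the 2 genes with the most similar pattern. Mki67, Top2a and Birc5 fall outside that rule and were chosen after their values were seen, and 1 item that the rule names is not reported here. Alternatives were DESeq2 size factors, upper quartile normalization, no filter or a minimum of 10 counts in each sample, a robust fit, DESeq2's Wald test (1.42.0), the replicate number as a block, a correction for GC content and length (offsets from the median of each sample within 20 bins of genes, with values for 98.7% of tested genes), the last pair together, each sample left out, and for shares the longest transcript as length. Total counts on genes ranged from 29797253 to 46519280, so that 3 counts in a sample correspond to 0.0645 to 0.101 CPM. Since the reads carry no molecular identifiers, such limits cover counting error only.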

Additional observations from a re-analysis of the deposited data

How the results depend on the processing

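Over 144 combinations of a gene of the 9 and an alternative, 137 kept the direction and the side of the threshold, 6 turned in sign and 1 passed the threshold. The sign turned for Dnmt3b without 6 months replicate 1 (0.043), for Tet1 without 16 months replicate 2 (−0.0020), for Mbd1 without 16 months replicate 1 (−0.0071) and without both 16 months replicates 1 and 2 (−0.011), and for Mbd2 without 6 months replicate 1 (−0.0036) and with a correction for GC content and length on top of the replicate block (−0.0070). Leaving out replicates 1 and 2 of 16 months, whose levels followed GC content in opposite directions, was chosen after seeing the data. With 1 sample left out, these differences ranged from −0.16 to 0.043 for Dnmt3b, −0.0020 to 0.15 for Tet1, −0.0071 to 0.081 for Mbd1 and −0.0036 to 0.069 for Mbd2. Dnmt1 ranged from 0.049 to 0.11. None of the 9 was called under 15 of the 16 alternatives, each single sample left out included.

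The count of called genes moved far more. It was 286, and 648 without a filter, 471 with DESeq2, 2447 with the correction for GC content and length, 1786 without 16 months replicates 1 and 2, and between 48 and 2211 with 1 sample left out. Each of the 6 samples moved it by more than 1.5 times: without replicates 1, 2 and 3 of 6 months it was 55, 57 and 48, and without those of 16 months 995, 2211 and 58. Of the 7 lists, 3 genes were called, and 7, 5, 27 and 16 under the same first 4 alternatives, and between 1 and 20 with 1 sample left out; the cause was not tested. The difference in the Dnmt3b share (−0.066 percentage points) was 0.013 without 6 months replicate 1 and 0.012 without 16 months replicate 1. Without 16 months replicate 2, the differences in the Tet1 share (0.49) and in the log2 ratio of erasers to writers (0.013) were −0.24 and −0.018. With 1 sample left out, they ranged from −0.12 to 0.013, from −0.24 to 1.03 and from −0.018 to 0.032. No other share or ratio changed sign.

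The ages share replicate numbers. Deviations from the mean of the age correlated across genes with r = 0.180, 0.0958 and 0.0351 for replicates 1, 2 and 3 (0.110 pooled). Each sample of 6 months correlated most with the sample of 16 months of its own number. 16 months replicate 3 correlated slightly more with 6 months replicate 2 (0.0379) than with its own number. Whether samples of the same number share more than that number was not tested. With that number as a block (replicate block), 783 genes were called in all, 7 genes that belong to the lists among them, and 0 of the 9. With the block and the correction together, 3270 of 17120 genes were called, 34 genes that belong to the lists among them. Of the 9 genes, 1 was then called, Dnmt3a (−0.096, edgeR adjusted p = 0.0327). Depth limits Uhrf1 and Dnmt3b, whose intervals allow changes well beyond those of the other 7.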
